A study of Mus musculus with 10 samples.

Results

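The regions described are the very wide, uninterrupted peaks of N6-methyladenosine (m6A) in the wild-type (WT) mouse brain: peaks that lie on a single exonic block and measure 600 bases or more. They were chosen by the block structure and width that the authors' WT consensus peak list gives, so both are a description and carry no test. The rule found 609 regions in 573 genes, among 11553 single-block and 15091 WT entries in all. They are compared by exonic overlap on the same strand with the 3733 entries of the list from the Mettl14 knockout (KO).

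The assay, m6A-seq, sequences RNA fragments bound by an antibody against m6A beside unselected input RNA. The 10 libraries, all of polyadenylated RNA from cortex and hippocampus at postnatal day 5, comprised 3 IP and 3 input libraries of WT animals and 2 IP and 2 input libraries of animals in which Nestin-Cre deleted Mettl14. Nestin-Cre acts in the neural lineage, so microglia and vessels of a KO sample would keep the gene, and the deleted exons are not given in the labels. They also name a culture medium and do not say whether libraries of a genotype came from separate animals. The deposited values are 1 list per genotype, so no difference between genotypes has a replicate error, the depth is unknown, and every interval below covers counting error over peaks only.

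METTL14 and METTL3 form the core of the nuclear enzyme complex that writes m6A on nascent mRNA. The mark is known to accumulate in long internal exons and in last exons, where few exon junction complexes sit, and antibody fragments from neighbouring methylated adenosines can merge into a single broad peak.

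The Chpf2 peak shows how broad these regions are against known small features, and its sequence is shown for that reason. Chpf2, which encodes a factor of chondroitin chain synthesis, carried a peak of 1313 bases with no KO overlap, from 24591151 to 24592463 of chromosome 5. Among the 609 peaks it alone held a microRNA hairpin of the RefSeq table, that of Mir671, whose 98 bases the WT list also gives as a peak of its own. The mature arms follow in RefSeq's GRCm38.p6 sequence, 5′ to 3′, on the plus strand, with the seed (bases 2 to 8) in capitals. The first lies at chr5:24592132-24592154 and the second at chr5:24592171-24592191.
mmu-miR-671-5p: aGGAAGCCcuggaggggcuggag
mmu-miR-671-3p: uCCGGUUCucagggcuccacc

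The first 20 to 30 bases of the peak were held by the RefSeq promoter table for 9 of the peaks. Of these, 3 began exactly at a listed gene start and the others 21 to 30 bases after one. The 3 starts are shown because there the border of the peak coincides with a start listed in that table. A listed start need not be the start of the gene span used for positions below. The letters GGACT, a frequent form of the m6A consensus, are in capitals. On the transcript strand, 2 of the 9 peaks held them in the first 20 to 30 bases, those of Cpeb4 and Tsc22d1. The same letters were searched on both strands in the first 30 bases after 32851 RefSeq gene starts, and 3.11% held them on the transcript strand and 5.86% on either strand. The 9 peaks were searched on the transcript strand only, and those that began after the listed start were read over a later stretch. The lines give Cpeb4 at chr11:31870940-31870969 on the plus strand, Nap1l5 at chr6:58907097-58907126 on the minus strand, and Egln2 at chr7:27165699-27165728 on the minus strand.
Cpeb4: GGACTcagccgcggctgcgggacctgggca
Nap1l5: gcggacgtcaccacagccgtcagcgtttgc
Egln2: ccacccccatcagtcccttctcaagctcct
A match is only a description of these letters. The peaks shown are those of Cpeb4, an RNA-binding regulator of translation, Nap1l5, an imprinted gene, and Egln2, an oxygen-sensing prolyl hydroxylase. In this order, KO peaks overlapped 332 of 720, 208 of 740 and 238 of 1009 bases. The midpoints of these peaks lay 1195, 369 and 1578 bases from the start of the gene span. Only the Nap1l5 peak thus began at the start of its span, and the listed starts of Cpeb4 and Egln2 lie inside theirs. The peak of Tsc22d1, which encodes a leucine zipper protein, began 21 bases after a listed start, measured 719 bases and had no KO overlap. Its midpoint lay 1240 bases from the start of the gene span, so this listed start too lies inside the span.

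The widths ran from 600 to 4019 bases, with a median of 779 and quartiles of 660 and 987. A width of 1000 bases or more was reached by 147 peaks, 1500 bases by 25 and 2000 bases by 5. Although they made up 4.04% of the WT entries, these peaks held 13.5% of all exonic bases in the list. The KO list held 16 single-block entries of this width, 0.429% of its entries. At the threshold, 26 single-block peaks measured exactly 600 bases, among them those of Map1a, Nol9 and Kcna6, and 21 measured 1 base less, among them those of Camk2g, Dlgap4 and Magee1. Of these 6, the Map1a peak alone was overlapped by a KO peak, over 330 bases. The score that the authors list ranks peaks within a list. It is called a p-value here, though it may be a q-value, since the sources do not say which. It was listed as 0 for 154 of the wide peaks, or 25.3%, against 5.09% of all WT entries.

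**Figure D1:**
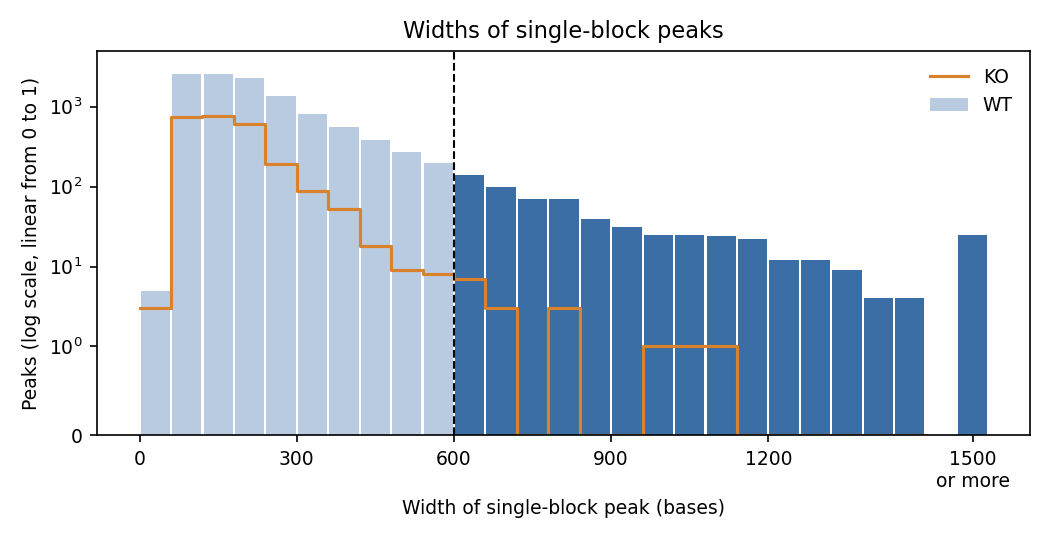
Number of single-block peaks (vertical, log scale above 1) by width in classes of 60 bases (horizontal) in the WT list (bars) and the KO list (orange line), with 600 bases marked by a dashed line and the last bar holding all WT peaks of 1500 bases or more. The 609 wide WT peaks are in dark blue, and 16 KO peaks lie to the right of the line.

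Ankrd11, which encodes a chromatin regulator, led with an unbroken 4019 bases (chromosome 8, minus strand, from 122892056 to 122896074). Peg13, an imprinted long noncoding RNA, followed with 3050 bases on chromosome 15, and then Apc2, the brain relative of the Wnt regulator Apc, with 2605 bases on chromosome 10. Pnmal2, of the paraneoplastic antigen-like family, had 2596 bases and Akap12, an anchor of protein kinase A, 2243. The other five of the 10 widest were in Gprin1, a neurite outgrowth gene (1950 bases), Uaca (1940), Akap5, an anchor of protein kinase A at synapses (1829), the histone acetyltransferase gene Crebbp (1765) and Zrsr1, an imprinted retrogene of a splicing factor family (1737). Of these 10, the peak of Akap5 alone had no KO overlap.

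Of the 609 wide peaks, 183 were overlapped by at least 1 base of a KO peak, a share of 30% with a Wilson 95% interval from 26.5 to 33.8, while 426 had no such base. Over all WT entries the share was 12.9%. Whether a peak is listed depends on the expression of its gene, on the number of libraries behind each list and on the threshold of the caller, and in such samples fewer cells of a type and less RNA per cell cannot be told apart. Overlap moved with width. The share was 22.1% among the 462 wide peaks of 600 to under 1000 bases (interval 18.5 to 26.1) and 55.1% among the 147 of 1000 bases or more (47.0 to 62.9). Overlapped peaks had a median width of 959 bases, against 721 bases for the others.

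A wider peak offers more bases to overlap, so the central 100 bases of every WT entry were compared as well. An entry narrower than 100 bases was compared over all its bases, so the share over all WT entries is not wholly at equal length. Here 86 of the wide peaks were overlapped, 14.1% (interval 11.6 to 17.1), against 10.6% of all WT entries and 12.2% (10.2 to 14.4) of the 944 single-block peaks of 400 to under 600 bases. The intervals of both single-block classes overlapped. Within the wide peaks, the central share was 11.7% at 600 to under 1000 bases (9.07 to 14.9) and 21.8% at 1000 bases or more (15.9 to 29.1), so the higher share of the wider ones was also found at the centre. Per 1000 bases of WT peak, KO peaks covered 92.0 bases of the wide single-block peaks, 63.7 bases of those of 400 to under 600 bases and 98.0 bases over all WT entries. Peaks of the same width that spread over several exonic blocks differed more. Of the 391 multi-block peaks of 600 bases or more, 62.7% were overlapped (57.8 to 67.3) and 37.3% at the centre (32.7 to 42.2), with 257.4 bases covered per 1000. Both intervals lay above those of the wide single-block peaks. Whether expression differs between the classes was not tested.

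**Figure D2:**
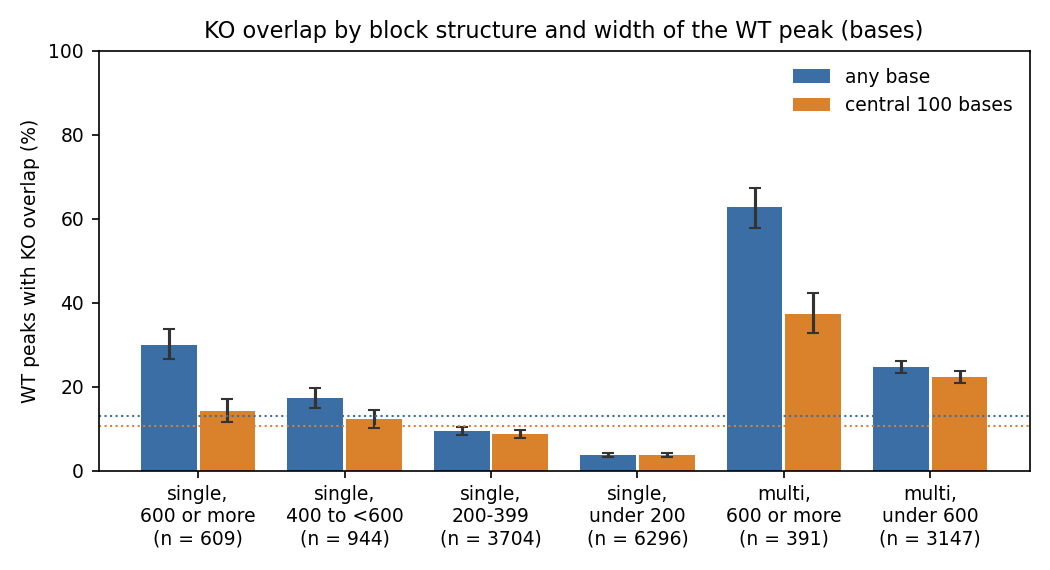
Share of WT peaks overlapped by a KO peak (vertical, %) by block structure and width, for any base (blue) and for the central 100 bases (orange), with Wilson 95% intervals and dotted lines at the shares over all WT entries (12.9% and 10.6%). Wide single-block peaks stand at 30% and 14.1%, multi-block peaks of the same width at 62.7% and 37.3%.

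Overlap moved with the strength of the WT peak too. Of the 154 wide peaks whose p-value is listed as 0, 82 were overlapped, 53.2% (45.4 to 61.0), against 101 of 455 others, 22.2% (18.6 to 26.2). Within the strongest 20.1% of all WT entries by p-value, the central 100 bases were overlapped in 18.1% of 403 wide peaks (14.7 to 22.2). The share there was 18.7% of 444 single-block peaks of 400 to under 600 bases (15.3 to 22.6) and 43.0% of 286 wide multi-block peaks (37.4 to 48.8). Among these strongest entries, the wide and the narrower single-block peaks were thus close at their centres, and the multi-block peaks stood above both. Strength was not matched further among them. A p-value listed as 0 was held by 154 of the 403 wide, 123 of the 444 narrower and 117 of the 286 multi-block peaks.

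KO peaks filled small parts of the wide regions. In the 183 overlapped peaks, the KO-covered stretch had a median of 211 bases, and the covered share a median of 22.9% of the WT width (interval 20.1 to 25.2, quartiles 14.8% and 34.6%). Coverage reached 50% in 20 peaks and 70% in 6, and stayed under 10% in 21. In all, 48981 of 532624 bases were covered, or 9.20%. Identical borders in WT and KO were found for none of the wide peaks. The 231 KO entries involved had a median width of 180 bases, 229 of them had a single block, and 218 lay wholly inside a wide WT peak. Their median p-value was 1.6e-19, against 2e-15 for the whole KO list. A single KO entry lay over 142 of the wide peaks, 2 entries over 35, and 3 to 5 entries over 6.

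The position of the KO coverage was spread along the wide peaks. Measured from the 5′ border, the midpoint of the covered bases had a median of 50% of the width (interval 45.5 to 53.9). It fell in the first 3rd of the peak in 54 cases, in the middle in 93 and in the last in 36. A shared 5′ border was found in 9 peaks and a shared 3′ border in 5. Coverage was lowest in the outermost 5% at either side, at 9.29% and 5.46% of the overlapped peaks, and reached 36.6% between 60% and 65% of the width. Most KO entries were narrower than the wide peak and lay wholly inside it. Low coverage at the borders and a midpoint near the centre are therefore in part set by the widths.

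**Figure D3:**
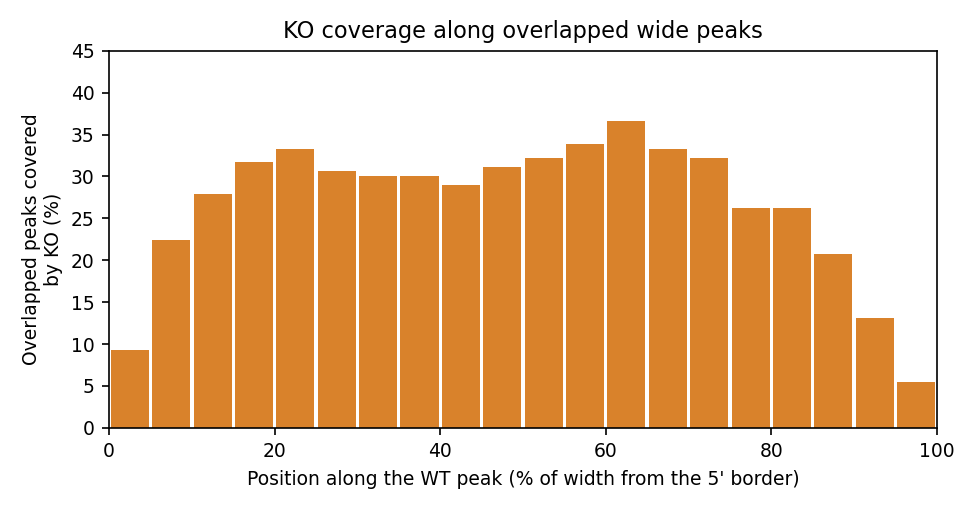
Share of the 183 overlapped wide peaks that a KO peak covered (vertical, %) in each of 20 classes of position along the WT peak (horizontal, % of width from the 5′ border). Values run from 9.29% at the 5′ border to 36.6% between 60% and 65% and 5.46% at the 3′ border.

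Ankrd11 and other broad regions held several separate KO peaks. The 4019 bases of the Ankrd11 block held 5 KO entries of 181, 271, 61, 691 and 91 bases from 5′ to 3′, which together cover 1295 bases or 32.2%. In Islr2, a leucine-rich repeat and immunoglobulin protein gene of axon growth, 4 KO entries covered 661 of 1615 bases. Peaks with 3 KO entries included those of Pnmal2 with 511 of 2596 bases covered, Gprin1 with 393 of 1950, and Pou3f2, a neural POU factor gene, with 421 of 1166. In Pou3f2 the first and last 180 bases of the WT peak were covered, with 61 bases between them.

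A few regions were covered broadly in the KO list. The best match was in Nefm, the medium neurofilament subunit gene, where 1018 of 1137 bases were covered by a single KO peak (89.5%), on chromosome 14 from 68120083 to 68121219 in WT and from 68120143 to 68121160 in KO. Hirip3, a gene named for its binding to the histone chaperone HIRA, had 719 of 837 bases covered, Gpatch4, a G-patch protein gene, 631 of 751, and Celf4, a neuronal RNA-binding protein gene, 571 of 721. Meg3, an imprinted long noncoding RNA, had 812 of 931 bases covered by 2 KO entries, of which the first ran past its 5′ border and the second past its 3′ border. Map1b, a microtubule-associated protein gene, had 1020 of 1587 bases covered, and Rrbp1, which encodes a ribosome-binding protein of the endoplasmic reticulum, 1020 of 1379. Map1a had 839 of 1707 in its widest peak, Ankrd12 781 of 1199, and the nuclear long noncoding RNA Malat1 721 of 1200. At the other end, the KO peak of Peg13 covered 60 of 3050 bases, and that of Tnrc6c, a microRNA silencing gene, met the WT peak at 1 base of 1171.

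**Figure D4:**
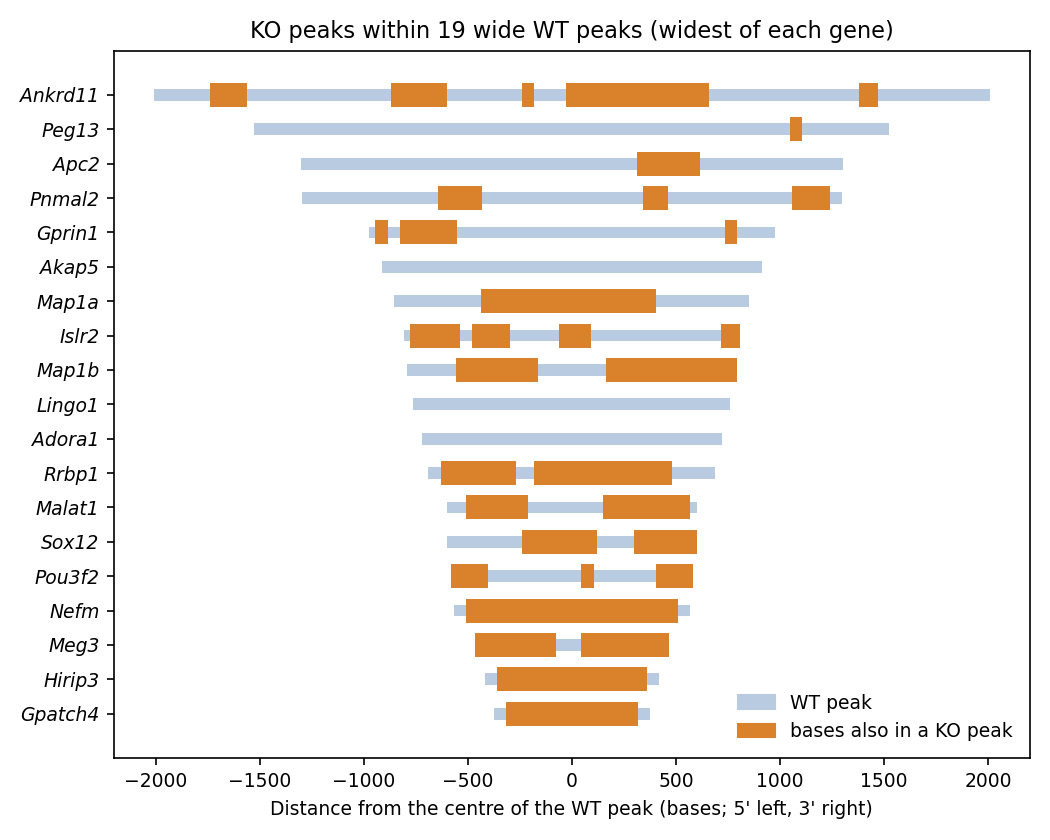
The widest peak of 19 named genes, aligned at the centre of the WT peak (horizontal, bases, 5′ left), with the WT peak in light blue and the bases also in a KO peak in orange. Ankrd11 shows 5 separate KO stretches, Nefm a single stretch of 1018 bases, and Akap5, Lingo1 and Adora1 none.

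The widest regions without any KO overlap were in Akap5 (1829 bases) and Dcaf5, a cullin ubiquitin ligase adaptor gene (1674), followed by the second widest Apc2 peak (1617), Armcx4 (1588), Chpf, a chondroitin synthesis gene (1558), Tmem151a (1555), Lingo1, a neuronal leucine-rich repeat receptor component gene (1522), Bsn, the presynaptic scaffold bassoon gene (1499), the sulfotransferase gene Chst2 (1464) and Adora1, the adenosine A1 receptor gene (1441). Akap5, Dcaf5, Chpf, Tmem151a and Adora1 had no KO entry anywhere in the gene. The p-value was listed as 0 for the Apc2, Armcx4, Lingo1 and Chst2 peaks, so strong WT peaks were also among those without KO overlap.

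Within genes, the wide peaks could differ. More than 1 wide peak was found in 32 genes. Map1a, a microtubule-associated protein gene, had 4, of 600, 750, 1707 and 630 bases in 5′ to 3′ order, with 330, 0, 839 and 0 bases covered in the KO list. Apc2 had 3, of 2605, 959 and 1617 bases, with 301, 270 and 0 covered. Of the 3 in the cytoskeletal linker gene Plec (1171, 691 and 600 bases), the widest alone was overlapped, over 482 bases. Nefm had a second wide peak of 1018 bases, near the 5′ end of the gene, with no KO overlap. The p-value listed for this second peak was 2.5e-26, against 0 for the first. A wide peak of another gene lies over nearly the same bases on the opposite strand. Both peaks of Sobp were overlapped (481 of 1141 and 151 of 1111 bases), 1 of 2 in Armcx4, in Irf2bpl and in the brain kinase gene Aatk, and none of 2 in Bsn and Adora1.

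Of the 573 genes, 178 had an overlapped wide peak, 31.1%. Among all genes with a WT entry, 20.6% had any overlapped entry, which is not a like measure, since it counts every entry of a gene. A further 109 genes had a KO entry elsewhere and 286 had none. The other 1354 WT entries of these 573 genes, with a median width of 210 bases, were overlapped in 14.8% of cases (13.0 to 16.8), and in 12.4% at their central 100 bases, against 30% and 14.1% for the wide peaks. No other WT entry was listed in 99 of the genes.

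By position, the midpoint of the wide peaks had a median of 86.5% of the gene span from the gene start, with quartiles of 56.9% and 96.0%. This median was not taken for other WT entries, so it cannot be called particular to wide peaks. The midpoint was within 1000 bases of the gene end in 12.3% of 608 peaks with a gene in the RefSeq table (9.96 to 15.2) and within 1000 bases of the gene start in 6.41% (4.73 to 8.65), against 15.9% and 10.3% of all WT entries. Single-block peaks of 400 to under 600 bases stood at 19.6% and 7.42%. The midpoint of a wide peak cannot come closer to an end than 300 bases, so part of each window is out of its reach. Among wide multi-block peaks the shares were 2.81% and 0.512%. The share near the gene end was 9.89% for overlapped (6.35 to 15.1) and 13.4% for the other wide peaks (10.5 to 16.9), intervals that overlapped. Genes with a span under 5000 bases held 14.8% of the wide peaks and 9.19% of all WT entries. Of their 90 wide peaks, 35.6% were overlapped (26.4 to 45.8), against 29% of those in longer genes (25.2 to 33.0). Protein-coding genes held 599 of the peaks, and 5 of the 9 in other transcripts were overlapped, among them Peg13, Malat1 and Meg3.

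Gene lists showed where wide peaks occurred. A wide peak was held by 7.43% of the 7717 genes with a WT entry, and by 16 of 32 such genes of leucine-rich repeat adhesion, a family whose coding sequence tends to lie on a single exon. The share was 11 of 25 for microtubule-associated and linker genes and 15 of 46 for remodelers and coregulators. It was 10 of 27 in the list headed postsynaptic scaffolds and regulators, in which the presynaptic gene Bsn is also counted. In the list headed HIVEP, BCL11, SALL and ZEB factors it was 10 of 21. That list also holds Adnp, Prdm8 and Tshz genes, named after their values were seen, which are among these 10. The share was 5 of 19 for forkhead and POU factors, 3 of 13 for SOX factors, 2 of 13 for neurogenic bHLH factors and 1 of 4 for nuclear factor I genes. Notch and Hedgehog genes had none in 15 and insulin receptor substrates and adaptors none in 12. These counts follow from the width rule and are a description.

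In 5 lists of transcription factor genes, 14 of 24 wide peaks were overlapped over at least 1 base. These lists (SOX, forkhead and POU, bHLH, HIVEP to ZEB and nuclear factor I) were joined after their counts were seen, so their share of 58.3%, beside 30% of all wide peaks, only describes them and does not stand for transcription factor genes at large. The HIVEP to ZEB list gave 12 of the 24 peaks, 5 of them overlapped, and these counts include peaks of its Adnp, Prdm8 and Tshz genes. Besides Pou3f2, the overlapped peaks included those of Sox12 (661 of 1200 bases covered), Bcl11b, a regulator of deep-layer cortical neurons (600 of 1436), Bcl11a (241 of 1200), both peaks of Sox4 (240 of 987 and 359 of 986), Neurod2, a neuronal differentiation factor gene (121 of 1195), and Bhlhe22 (239 of 717). No KO overlap was found for the wide peaks of Sox2, the neural stem cell factor gene (1159 bases), Hivep1 (901), Nfic (810), Sall2 (780) or Foxk1 (629). The median width of the 24 peaks, 943 bases, was above the 779 of all wide peaks. Among peaks of 600 to under 1000 bases the share was 5 of 14, among wider ones 9 of 10. At the central 100 bases it was 4 of 24, or 16.7%, close to the 14.1% of all wide peaks.

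In 5 lists of adhesion, receptor and channel genes, 5 of 37 wide peaks were overlapped, 13.5%, and 0 at the central 100 bases. These lists (protocadherins, other cadherins, leucine-rich repeat adhesion, G protein-coupled receptors and potassium channels) were joined in the same way and do not stand for cell surface proteins at large. Outside them, KO peaks overlapped the wide peaks of Islr2 and, among genes named after their values were seen, of the receptor gene Adgrl1 (151 of 1081 bases), the presynaptic adhesion gene Nrxn2 (450 of 957), the neurotrophin receptor gene Ntrk2 (181 of 631), the sodium channel gene Scn2a (181 of 630), the adhesion genes Ntm (329 of 836) and Tenm2 (152 of 1261) and 1 of 2 wide peaks of the channel gene Hcn4 (150 of 629). Those of Islr2, Scn2a and Ntm were overlapped at the central 100 bases. Related genes outside the lists had wide peaks with no KO overlap, and these too are named after their values were seen. They were Adgrl2 (810 bases), Adgrl3 (960), Scn8a (1198), Opcml (781) and Tenm3 (both peaks, 841 and 811). Surface protein genes outside the lists were not counted, so these names give no share. Within the lists, the overlapped peaks were in Lrrc4b, a synaptic adhesion gene (150 of 1733 bases), Elfn2 (181 of 1048), Slitrk5 (180 of 986), Lrfn1 (121 of 749) and the giant cadherin gene Fat4 (181 of 901). Slitrk5 and Lrfn1 are named after their values were seen. Besides Lingo1 and Adora1, no overlap was found for Lrrn2 (1405 bases), the potassium channel genes Kcnj4 (1166) and Kcnf1 (899), the protocadherin genes Pcdh10 (1139) and Pcdhga12 (718), the muscarinic receptor gene Chrm1 (1048), or the atypical cadherin genes Celsr2 (719) and Dchs1 (660). Protocadherins had 5 genes with a wide peak among 59, cadherins 3 among 16, receptors 5 among 34 and potassium channels 5 among 26. The median width over the 5 lists was 720 bases. Among the 10 peaks there of 1000 bases or more, 2 were overlapped, and 4 of 26 in the strongest 20.1% of WT entries, against 55.1% and 36.7% of all wide peaks so limited. Expression of these genes in the KO cannot be read from the lists, and its part was not tested.

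**Figure D5:**
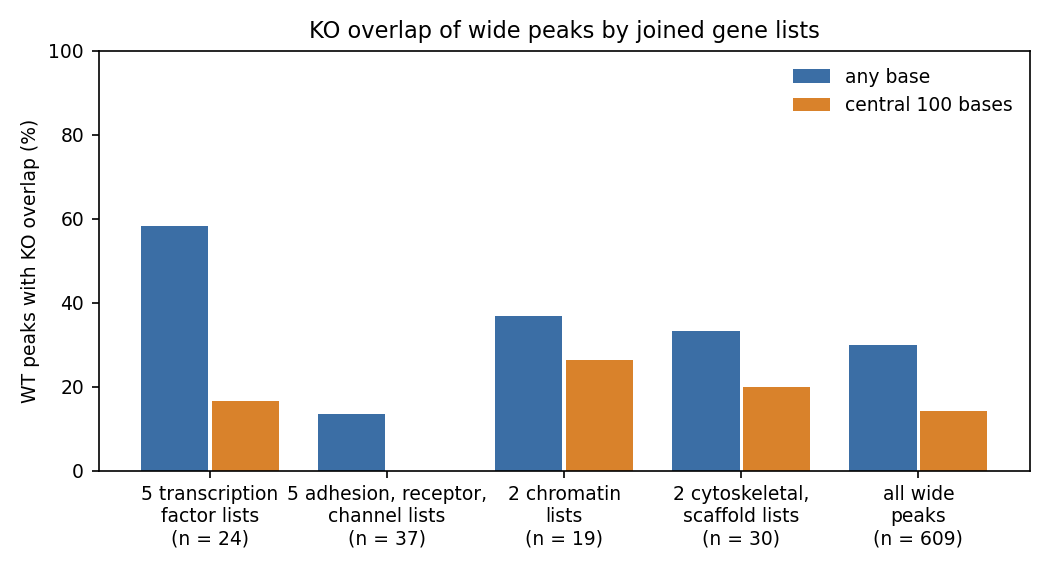
Share of wide peaks overlapped by a KO peak (vertical, %) in 4 groups of gene lists and in all 609 wide peaks, for any base (blue) and the central 100 bases (orange). The lists were joined after their counts were seen, so no intervals are drawn. The transcription factor lists stand at 58.3% and the adhesion, receptor and channel lists at 13.5% for any base, and at 16.7% and 0 for the central 100 bases.

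Lysine methyltransferase and demethylase genes (4 of 33 with a wide peak) and remodelers and coregulators held 19 wide peaks, of which 7 were overlapped, 36.8%, and 5 at the centre, 26.3%, beside 30% and 14.1% of all wide peaks. The count was 1 of 10 under 1000 bases and 6 of 9 at 1000 bases or more. Besides Ankrd11, Ankrd12 and Crebbp, these included Arid1b, a BAF complex subunit gene (180 of 1648 bases, named after its values were seen), Kmt2e (482 of 811) and Kmt5b (121 of 1261). The peaks of Ahdc1 (1315 bases), Arid1a (1140), Kmt2d (841) and Setd1b (659) were not overlapped. Cytoskeletal and synaptic scaffold genes held 30 wide peaks, of which 10 were overlapped, 33.3%, with 5 of 23 under 1000 bases and 5 of 7 at 1000 bases or more. Among them was Lmtk3 (151 of 1019 bases). The intermediate filament gene Nes (1196 bases) and Mtcl1 (929) had none.

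Smaller lists gave the following counts, to be read beside the 30% of all wide peaks and the 12.9% of all WT entries that were overlapped. Imprinted genes had a wide peak in 5 of 22 genes, and 4 were overlapped, in Peg13, Zrsr1 (391 of 1737 bases), Meg3 and Nap1l5, but not in Mkrn3 (655 bases). Wnt genes had 7 wide peaks in 4 of 25 genes, 3 of them overlapped, including that of Bcl9l (270 of 1468 bases), while Apc had none over its 900 bases. Immediate early and Myc family genes had 6 in 5 of 27, with 3 overlapped, including Egr1 (240 of 1193) and Ier5 (91 of 870), while Mycl (1370 bases) and the wider Jun peak (1013) were not. The m6A machinery had 4 in 21 genes. Rbm15b, of the writer complex, had 270 of 837 bases covered and the reader gene Prrc2a 91 of 809, while the reader gene Ythdf2 (751 bases) and Prrc2c (928) had none covered. MicroRNA silencing genes had 3 in 2 of 13 genes, with Tnrc6c overlapped and Tnrc6b not. FEM1, KLHL and BTB adaptor genes had 5 in 42, of which Kbtbd11 was overlapped (121 of 749 bases) and Fbxo46 (1377) and Btbd9 (1079) were not. TRIM and RING ligase genes had 1 in 26, that of Pja1 (986 bases), with no KO overlap. Nuclear genes of mitochondria, which the study's title points to, had wide peaks in 2 of 35 genes, the transport adaptor gene Trak2 (181 of 810 bases covered) and the transcription factor gene Nrf1 (151 of 720).

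Marker genes of the cell types were checked in both lists. At least 1 WT entry was found for 4 of 5 neuron, 4 of 4 astrocyte, 4 of 4 oligodendrocyte lineage, 2 of 3 microglia and 3 of 3 endothelial markers, and a KO entry for 4, 3, 0, 1 and 1 of them. Among all 7717 genes with a WT entry, 20.6% had an entry overlapped in the KO list, which is not a like measure, since it asks for overlap. With so few markers per type, these counts show no loss in a cell type, and none was tested. In the longer list of neuron markers, 3 of 14 genes with a WT entry had wide peaks, Neurod2, Rbfox3, which encodes NeuN (419 of 1164 bases covered), and Nefm. Among glial and other cell markers, 2 of 23 had one, Cspg4 (629 bases) and the endothelial claudin gene Cldn5 (620), and neither was overlapped. Over all genes with a WT entry, 7.43% had a wide peak. Of all wide peaks under 1000 bases, 22.1% were overlapped, so 2 such peaks without overlap give no contrast between cell types. Mettl14 itself had 1 WT entry of 180 bases and no KO entry, which does not measure its expression.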

How the data were processed

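RNA of WT and KO samples was immunoprecipitated with an m6A antibody and built into stranded libraries, per the labels' protocols. STAR and GRCm38 are named in the submitters' processing notes. Not given in the sources used here were the peak caller, its thresholds and any pooling of libraries. Deposited by the authors was 1 consensus peak list per genotype, whose score was read as a p-value or q-value, since it ran from 0 to 0.00015 in WT and to 4.4e-06 in KO. Which of both it is, is not stated. Entries count from 0 and printed coordinates from 1.

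Entries were used as deposited. A peak was called overlapped when a KO entry shared at least 1 exonic base on the same strand, as computed in Python 3.11.15, with overlap functions tested on simulated intervals. Shares carry Wilson 95% intervals, and medians an order-statistic interval. Gene spans came from RefSeq's table of GRCm38.p6, where 608 of 609 peaks found their gene. The lists cover 26 gene families and cell markers. The 4 groups joined from them, and their width and strength subsets, were chosen after seeing the data. Named genes were the 10 widest peaks, the 10 with most KO-covered bases, the 10 widest without KO overlap, genes with several wide peaks, peaks with several KO entries or a Jaccard index of 0.7 or more, the nearest to the threshold, and up to 2 with and 2 without overlap per list. Names beyond the rule are marked where they appear or are the genes whose start or hairpin sequence is shown. An item that the rule would name is not reported here. The regions and lists were chosen with earlier results of these data known. Motif counts within peaks were not run, since no genome sequence was used here. No test between peak classes was made, since peaks are not replicates.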

Additional observations from a re-analysis of the deposited data

How the results depend on the processing

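No paired analysis was possible because each genotype has a single list without library values, and for that reason no replicate could be left out. The number of wide single-block peaks was 993, 288 and 147 with thresholds of 500, 800 and 1000 bases, and 607 after merging entries. The overlapped share of 30% was 25.9%, 43.4% and 55.1% at those thresholds. It was 20.9% with the stronger 50% of KO entries, 3.28% when 50% of the WT peak had to be covered and 1.64% when that held for both peaks together. It was within its interval when 50% of a KO peak had to lie inside, strand was ignored, a gap of 100 bases was allowed, entries were merged or the stronger 50% of WT entries were used. The central share of 14.1% was 10.8% for 50 bases, 17.2% for 200 bases and 10.8% with the stronger 50% of KO entries. The median covered share of 22.9% was 20.1% at 800 bases and 26.0% with stronger KO entries. The median position stayed within its interval. The shares near the gene end and start (12.3% and 6.41%) were 2.63% and 0.658% with 500 bases, 37.5% and 15.8% with 2000 bases, and 23.8% and 11.7% when any base counted. In the gene groups, 7 of 16 values moved beyond the interval of the whole group. The depth behind each peak is unknown.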

Other observations

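Some entries of the WT list share bases. The wide peaks of Adnp, a homeodomain gene of neuronal development (1140 bases), and Gm20716 (1138 bases) lie over nearly the same stretch of chromosome 2, so that stretch is counted under both names, and the 184 bases that KO peaks cover there are counted for both. The wide peak of Cbx6, a Polycomb gene (989 bases), shares bases with a 2-block entry of Npcd. On the opposite strand, 11 wide peaks faced a WT entry and 1 faced a KO entry.

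Of the 16 single-block KO entries of 600 bases or more, 8 lay over a wide single-block WT peak and 14 over some WT entry. Besides those described above, they included C530008M17Rik (1080 bases), Nfix, a nuclear factor I gene (659 bases), and Ywhag, a 14-3-3 protein gene (630 bases), each over WT entries that are narrower than 600 bases or have several blocks. All genes in these 2 paragraphs were named after their values were seen.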
